A study of Mus musculus with 6 samples.

Results

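The tensins are a family of 4 genes, Tns1, Tns2, Tns3 and Tns4, whose RNA was followed here in mouse inner medullary collecting duct (IMCD) cells, an epithelial line model of the kidney collecting duct. Members were taken by symbol among array probe sets that carry exactly 1 gene symbol, with Tenc1 as an older name of Tns2. Each of the 4 genes had 1 such probe set, of 23521 probe sets and 22180 genes in all, and no probe set with several symbols listed a tensin. The family was selected on symbols, but also with its log2 differences between the groups on these arrays already known, so the tensin values are given as a description, with no test.

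One group of cells had been stably transduced with a lentiviral vector carrying GFP and wild-type ILK, and the other with the same kind of vector carrying the missense variant ILK-T173I. EGF was given to both groups (20 ng/ml, 15 minutes), and RNA was taken 1 hour later. Each group had 3 arrays, which the labels call biological replicates, but the sources used here do not say how they relate to separate lines or cultures, so spreads between arrays may be technical. With no unstimulated cells and no cells without an ILK vector among the 6 arrays, the data compare the groups after EGF and hold no response to EGF itself.

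Tensins sit at the cytoplasmic face of integrin adhesions. They bind the tails of beta integrins through a phosphotyrosine-binding domain at the C terminus, which follows an SH2 domain. Tns1, Tns2 and Tns3 also have an N-terminal region that binds actin, while Tns4, also called Cten, lacks it. In mammary epithelial cells EGF is known to lower Tns3 and raise Tns4, an exchange called the tensin switch, in which the short tensin displaces the longer one from integrin tails and stress fibres come apart. ILK is a pseudokinase of the same adhesions that joins integrin tails to actin through the parvins. Loss of Tns1 leads to kidney cysts in mice, and mutation of Tns2 to nephrotic disease.

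The sequence upstream of the start of 3 of the 4 genes is shown because Tns1 and Tns3 were both at their lowest on the same pair of arrays, and Tns2 was not. These are the 250 bases before the RefSeq start in build GRCm38.p6, written 5′ to 3′ on the strand of the gene, at chr1:74124549-74124798 (minus strand) for Tns1, chr15:102102684-102102933 (plus strand) for Tns2 and chr11:8664536-8664785 (minus strand) for Tns3. Capitals mark GC boxes, GGGCGG on either strand.
Tns1: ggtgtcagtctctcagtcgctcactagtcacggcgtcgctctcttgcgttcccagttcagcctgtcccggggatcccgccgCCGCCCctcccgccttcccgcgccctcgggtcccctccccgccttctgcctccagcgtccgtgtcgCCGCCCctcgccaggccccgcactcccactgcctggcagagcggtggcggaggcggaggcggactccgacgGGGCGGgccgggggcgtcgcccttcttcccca
Tns2: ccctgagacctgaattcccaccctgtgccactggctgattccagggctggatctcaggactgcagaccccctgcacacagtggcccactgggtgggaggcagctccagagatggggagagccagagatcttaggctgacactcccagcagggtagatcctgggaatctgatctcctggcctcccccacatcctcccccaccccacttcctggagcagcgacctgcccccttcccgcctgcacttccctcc
Tns3: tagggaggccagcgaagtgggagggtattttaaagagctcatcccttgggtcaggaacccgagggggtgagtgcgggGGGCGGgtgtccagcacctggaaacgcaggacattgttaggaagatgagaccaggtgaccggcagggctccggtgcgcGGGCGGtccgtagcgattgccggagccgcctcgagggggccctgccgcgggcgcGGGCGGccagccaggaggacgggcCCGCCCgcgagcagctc
The Tns1 window held 3 GC boxes, the first base of each at -169, -103 and -32 from the start. The Tns3 window held 4, at -173, -95, -41 and -17, and the Tns2 window held 0. A GC box was present in 32.7% of 32851 mouse windows of this length. None of the 3 windows held an AP-1 motif (TGANTCA, in 6.75% of all windows), an Ets motif (CCGGAA, 12% of windows), a TEAD motif (GGAATG, 12.6% of windows) or a CArG box, the element bound by SRF (1.47% of windows), on either strand. Only these patterns of letters were searched, so other forms of the sites, Ets sites among them, may be present. The matched letters of these motifs do not overlap each other here. GC content was 74.4% in the Tns1 window, 63.6% in that of Tns2 and 69.6% in that of Tns3, against a median of 52.4% over all windows. A GC box holds only G and C, so its share over all windows is no matched background for windows this rich in GC. The pair of arrays where Tns1 and Tns3 were lowest, T173I replicates 2 and 3, lay below every wild-type array in 22.1% of 13308 genes. A link between these motifs and the tensin signals was not tested.

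Signals are log2 values from RMA, so a difference of 1 is a 2-fold change. The arrays had median signals of 5.45 to 5.52. T173I replicate 1 stood apart from the other T173I arrays. On the first principal component of 13308 genes, which held 57.4% of the variance, it lay at -11.4, beside the wild-type arrays at -18.3 to -11.3, while T173I replicates 2 and 3 lay at 38.3 and 15.8. The line's epithelial identity was visible in Cdh1, E-cadherin, at 11.20 to 11.41 on the 6 arrays. Of 20 collecting duct and epithelial markers 6 fell under the filter on dim genes described below, among them the water channels Aqp3 and Aqp4 and the inner medullary urea transporter gene Slc14a2. Aqp2, the vasopressin-regulated water channel, was at 5.97 to 6.25.

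Tns1, which joins integrin tails to actin filaments, differed most between arrays. It was at 8.70 on each of the wild-type arrays, with exactly the same deposited value on all 3. On T173I replicates 1, 2 and 3 it was at 9.42, 5.26 and 5.37. T173I replicate 1 was thus above every wild-type array and the other T173I arrays were far below, so the groups overlapped. Relative to the wild-type mean the signal was 1.65-fold higher on replicate 1. On replicates 2 and 3 it lay at or under 5.37, the level below which genes were called dim and left out of the test, so it was at least 10.1-fold lower on both, counted down to that level. In a culture measured in bulk, fewer cells that express a gene and less of its RNA per cell cannot be told apart.

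The wild-type mean of Tns1 was 8.70 ± 0 (SD, n = 3) and the T173I mean 6.69 ± 2.37 (SD, n = 3). The difference, T173I minus wild type, was -2.02 log2 units, smaller than the SD of the T173I arrays. Leaving out T173I replicate 1 gave -3.38, leaving out replicate 2 gave -1.30 and leaving out replicate 3 gave -1.36. The deposited values come with no detection call, so how far below the dim level the RNA lies on replicates 2 and 3 cannot be read, and these differences carry their signal as deposited.

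**Figure D1:**
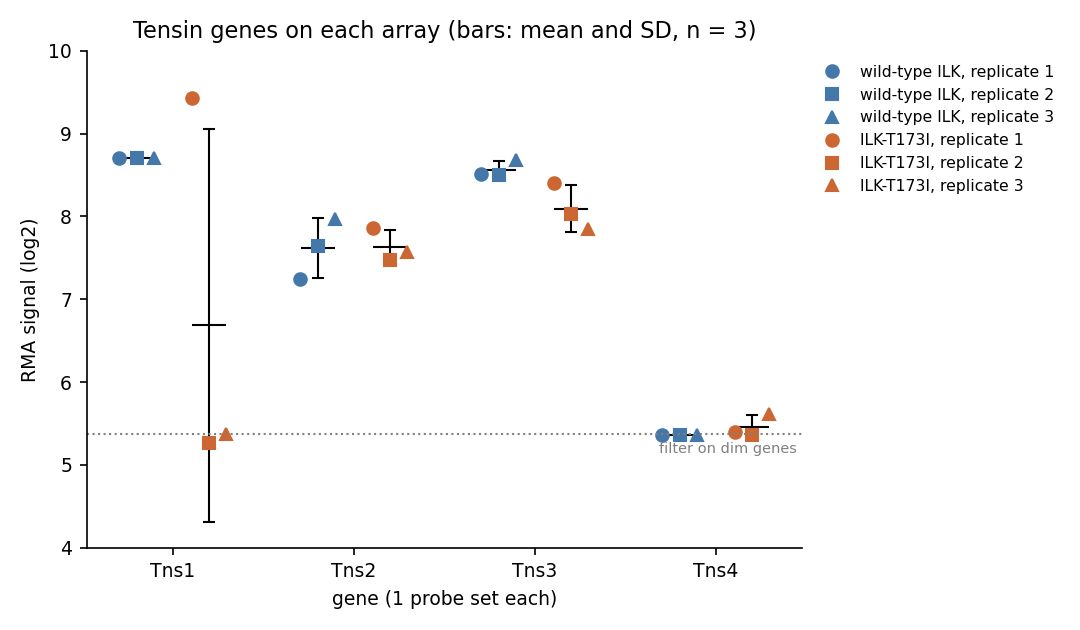
RMA signal in log2 units (vertical axis) of Tns1, Tns2, Tns3 and Tns4, with 1 point per array, 3 wild-type ILK and 3 ILK-T173I; horizontal bars are means, error bars are SD, and the dotted line is the filter on dim genes at 5.37. Tns1 is split within the T173I group, at 9.42 on replicate 1 against 5.26 and 5.37 on replicates 2 and 3, and Tns4 lies between 5.36 and 5.62 on the 6 arrays, close to the filter line.

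Tns3, the tensin that EGF is known to lower in mammary cells, was the other member with lower signal on T173I arrays. It was at 8.52, 8.49 and 8.68 on wild-type replicates 1, 2 and 3, and at 8.41, 8.03 and 7.85 on T173I replicates 1, 2 and 3. All 3 T173I arrays were below all 3 wild-type arrays, as in 7.95% of the 13308 genes tested. T173I replicate 1 was again the nearest to wild type. The wild-type mean was 8.56 ± 0.10 (SD, n = 3) and the T173I mean 8.10 ± 0.28 (SD, n = 3). The difference was -0.47, a 1.38-fold lower signal. Leaving out T173I replicate 1 gave -0.62, and leaving out T173I replicate 3 gave -0.35.

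Tns4, the short tensin that EGF is known to raise, gave a low signal throughout. It was at 5.36 on all 3 wild-type arrays and on T173I replicate 2, at 5.39 on T173I replicate 1 and at 5.62 on T173I replicate 3. The deposited value was exactly equal on the 4 arrays at 5.36, so the only array clearly apart was T173I replicate 3. The wild-type mean was 5.36 ± 0 (SD, n = 3) and the T173I mean 5.46 ± 0.14 (SD, n = 3). They differed by 0.096, less than the SD of the T173I arrays. The wild-type mean was under the filter at 5.37, so Tns4 entered the test only through its T173I arrays.

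Tns2, a tensin with a C1 domain near its N terminus, overlapped fully between the groups. It was at 7.25, 7.64 and 7.97 on wild-type replicates 1, 2 and 3, and at 7.87, 7.47 and 7.57 on T173I replicates 1, 2 and 3. The 3 T173I arrays lay inside the range of the wild-type arrays. The means were 7.62 ± 0.36 (SD, n = 3) and 7.64 ± 0.21 (SD, n = 3), a difference of 0.016, far under either SD. Its wild-type range of 0.72 was wider than that of 97.4% of the 13308 genes tested.

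The balance of Tns4 and Tns3 was followed on each array as the shift of Tns4 minus the shift of Tns3, each taken from that gene's own wild-type mean. It was 0.047, 0.069 and -0.12 on wild-type replicates 1, 2 and 3. It was 0.19, 0.53 and 0.97 on T173I replicates 1, 2 and 3, so every T173I array lay above the wild-type range, with replicate 1 the nearest to it. The T173I mean was 0.56 ± 0.39 (SD, n = 3). Of that mean 0.47 came from the lower Tns3 signal and 0.096 from Tns4. With Tns4 at the dim level in wild type and on T173I replicate 2, where its shift was 0, the measure mostly restates the Tns3 difference and is no separate reading of an exchange between the 2 genes.

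**Figure D2:**
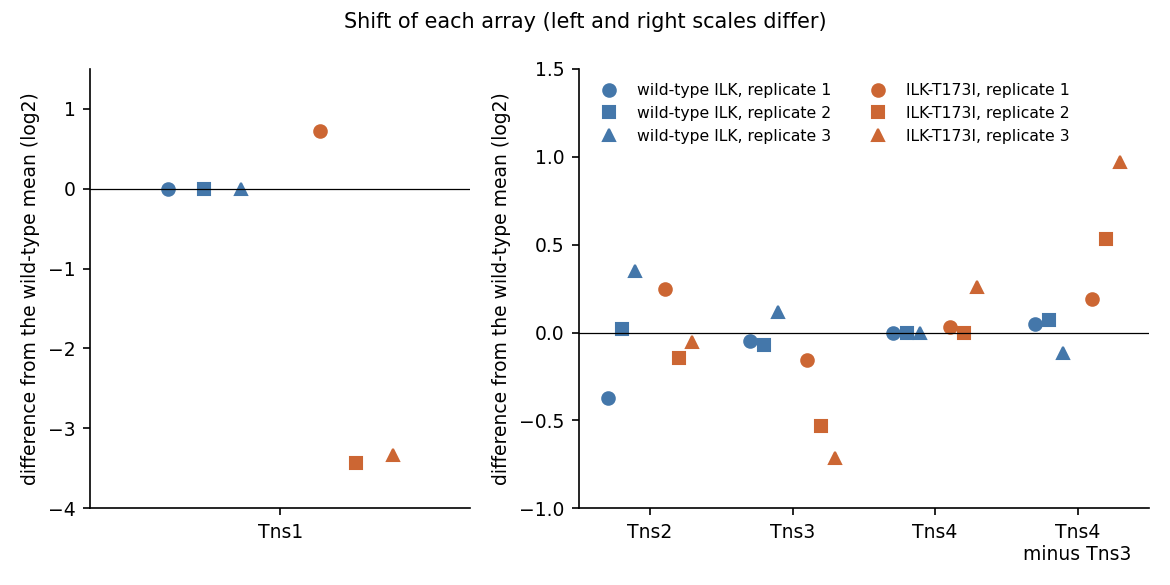
Difference of each array from the wild-type mean of the same probe set, in log2 units (vertical axes, whose scales differ between the panels), for Tns1 on the left and for Tns2, Tns3, Tns4 and the shift of Tns4 minus that of Tns3 on the right; each point is 1 array. Tns1 reaches -3.44 and -3.33 on T173I replicates 2 and 3, and the Tns4 minus Tns3 measure is 0.19 to 0.97 on the T173I arrays against -0.12 to 0.069 on the wild-type arrays.

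Against all genes, the split of Tns1 within the T173I group was among the widest. The highest and lowest T173I arrays were 4.16 log2 units apart for Tns1, which ranked 3 among 13308 genes, where the median gene had 0.31. The same range was 0.56 for Tns3, 0.39 for Tns2 and 0.26 for Tns4. T173I replicates 2 and 3 both lay below every wild-type array in 22.1% of genes, and Tns1 and Tns3 were among these. T173I replicate 1 lay above and replicates 2 and 3 below every wild-type array in 5.18% of genes, of which Tns1 was one and the other tensins were not.

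In limma's test of T173I against wild type, 0 of 13308 genes (0%) had a Benjamini-Hochberg adjusted p under 0.05, and 1357 (10.2%) had an unadjusted p under 0.05, 4.88% on the higher and 5.31% on the lower side. Without T173I replicate 1 the former count was 156 (1.17%), and the latter was 2948. That array lay beside the wild-type arrays on the first principal component, so leaving it out favours such calls. The former count was 0 when any other array was left out. The unadjusted count was 666 without wild-type replicate 1 and 794 without wild-type replicate 2. The groups did not overlap in 15.2% of genes, with T173I lower in 7.95% and higher in 7.23%. Of the 4 tensins, Tns3 had groups that did not overlap, on the lower side, and these shares are given only as the background to that count and to those of listed genes below.

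**Figure D3:**
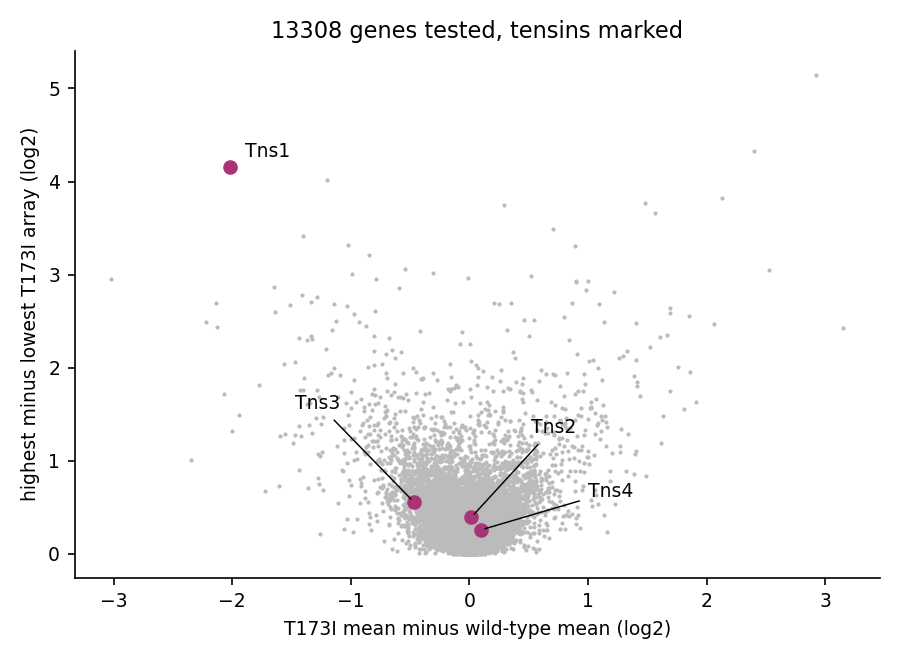
Each point is 1 of the 13308 genes tested, with the T173I mean minus the wild-type mean in log2 units on the horizontal axis and the distance between the highest and lowest T173I array in log2 units on the vertical axis; the 4 tensins are larger and labelled. Tns1 stands at -2.02 and 4.16, outside the cloud of genes that holds Tns2, Tns3 and Tns4.

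Exactly equal values touch 2 of the 4 tensins. Tns1 was equal on 3 arrays and Tns4 on 4, and in both the shared value was also the median of the 6 arrays. For Tns4 this is fixed by arithmetic, since a value shared by 4 of 6 arrays is always their median. Among the 13308 genes, 823 had equal values on 3 or more arrays, and in 740 of these (89.9%) the shared value was the median of the 6 arrays within 1e-06. Much of that share is fixed in advance: 163 genes had 4 or more arrays equal. With exactly 3 equal, the shared value is the median unless those arrays are all the lowest or all the highest. All 3 wild-type arrays were equal in 97 genes (0.73%). These 97 genes were dimmer than most, with a median signal of 5.97 against 7.88 over all genes tested, and their median T173I range was 0.18. Tns1 differed from them in range: it was the 1 gene of the 97 with a T173I range of at least its own 4.16, and 2 of the 97 reached a range of 1. An SD of 0 in wild type is therefore no measure of how closely the Tns1 signal repeats, and the cause of the ties was not tested.

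The genes whose signal followed each tensin most closely over the 6 arrays were read by Pearson's r, as a description, among genes with an SD of at least 0.2. For Tns1 the highest r were those of Dolk (0.9964), the dolichol kinase of protein glycosylation, Gpd1l (0.9961), a glycerol-3-phosphate dehydrogenase-like protein, and Fry (0.9943). Their values moved far less: Gpd1l was at 8.59 to 8.70 on the wild-type arrays, then 8.83, 7.82 and 7.78 on T173I replicates 1, 2 and 3. The lowest r with Tns1 were those of Mei4 (-0.9987), Zfp131 (-0.9941) and Zdhhc13 (-0.9924). With 1 pair of arrays far from the other 4, r for Tns1 mostly reflects that split.

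For Tns3 the highest r were those of Pik3r1 (0.9936), which encodes the p85-alpha regulatory subunit of PI3-kinase, Mme (0.9896), the membrane peptidase neprilysin, and Galnt7 (0.9773), a glycosyltransferase. Pik3r1 was at 8.67, 8.70 and 8.91 on wild-type replicates 1 to 3 and at 8.48, 7.92 and 7.79 on T173I replicates 1 to 3, the same order within the T173I group as Tns3. Galnt7 was at 7.87 to 8.59 in wild type, then 7.88, 6.13 and 6.12 on T173I replicates 1, 2 and 3. The lowest r with Tns3 were those of Abcd4 (-0.9974), Lcp1 (-0.9902), an actin-bundling plastin, and Ctsc (-0.9894), a lysosomal peptidase.

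For Tns4 the highest r were those of Pls1 (0.9849), an epithelial plastin, Sh2d4b (0.9849) and Ddx58 (0.9805), the RNA sensor RIG-I. The lowest were Icam1 (-0.9939), an adhesion molecule, Hpdl (-0.9931) and Mfsd10 (-0.9858). Each of these 6 had its extreme value on T173I replicate 3, the array with the highest Tns4, as Icam1 did at 5.06 against 5.58 to 5.64 on the other arrays. Tns4 was clearly apart on that array only, so choosing genes by r largely fixes this. Egfr, the EGF receptor, looked up after its values were seen, was also lowest on T173I replicate 3, at 9.95 against 10.64 to 10.76 on the others. Among other genes of its family and pathway, Shc1 was lowest there too, but Erbb2, Erbb3 and Gab1 were lowest on T173I replicate 2. Sos1 and Map2k1 were highest on T173I replicate 3. A link between Egfr and Tns4 was not tested. For Tns2 the highest r were those of Lrp1 (0.98), an endocytic receptor, Kctd1 (0.971) and Olfm2 (0.960), and the lowest those of Fbln5 (-0.953), an elastic fibre protein, Pik3cb (-0.943) and Cfap300 (-0.928).

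Genes for proteins that bind tensins or act with them had mostly positive differences. Of 21 listed partners 18 were tested, and 0 passed the adjusted threshold in either direction in limma's test. Before adjustment 6 were higher and 1 was lower at p under 0.05, beside 4.88% of all genes higher and 5.31% lower. The median difference was 0.19 over the list and -0.011 over all genes tested, with 13 members positive. Without T173I replicate 1 that median was 0.31, without replicate 2 it was 0.018, and weighting the arrays gave 0.098. The mean of the listed genes, relative to wild type, was 0.051, 0.32 and 0.16 for T173I replicates 1, 2 and 3, and -0.051 to 0.052 on the wild-type arrays.

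Dock5 and Peak1, whose proteins are known to bind Tns3, were both higher on every T173I array. Dock5, an exchange factor for Rac, was at 7.28, 7.29 and 7.79 on the wild-type arrays and at 8.12, 8.43 and 8.51 on T173I replicates 1, 2 and 3. Peak1, a pseudokinase of the actin cytoskeleton, was at 8.08, 8.17 and 8.44 in wild type and at 8.67, 9.21 and 8.96 in T173I. In both genes the groups did not overlap, T173I replicate 1 included, and the differences were 0.90 (95% interval 0.49 to 1.32) and 0.72 (0.33 to 1.11). Of all genes tested, 7.23% had T173I higher without overlap. Dock5 and Peak1 were named for the smallest unadjusted p of the list. That choice favours groups that do not overlap, larger differences and intervals that exclude no difference. Neither passed limma's adjusted threshold (adjusted p = 0.45 for each).

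The integrin beta subunits that tensins bind did not move as one. Itgb3 was at 6.36 to 6.45 in wild type and at 6.61, 6.85 and 6.92 on T173I replicates 1, 2 and 3, a difference of 0.39 (limma adjusted p = 0.45). Itgb5 was at 11.05 to 11.15 in wild type and at 10.92, 10.28 and 10.72 in T173I, a difference of -0.46 (limma adjusted p = 0.47). Both had groups that did not overlap, in opposite directions, beside 7.23% of all genes with T173I higher and 7.95% with T173I lower. They too were named for a small unadjusted p in the list, which favours such groups. Itgb1, the most widely used beta subunit, was at 11.41 to 11.44 in wild type and 11.31 to 11.54 in T173I. Dlc1, whose protein tensins bind, was at 8.29 to 8.46 in wild type, and T173I replicate 2, at 9.10, was the 1 array above that range.

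**Figure D4:**
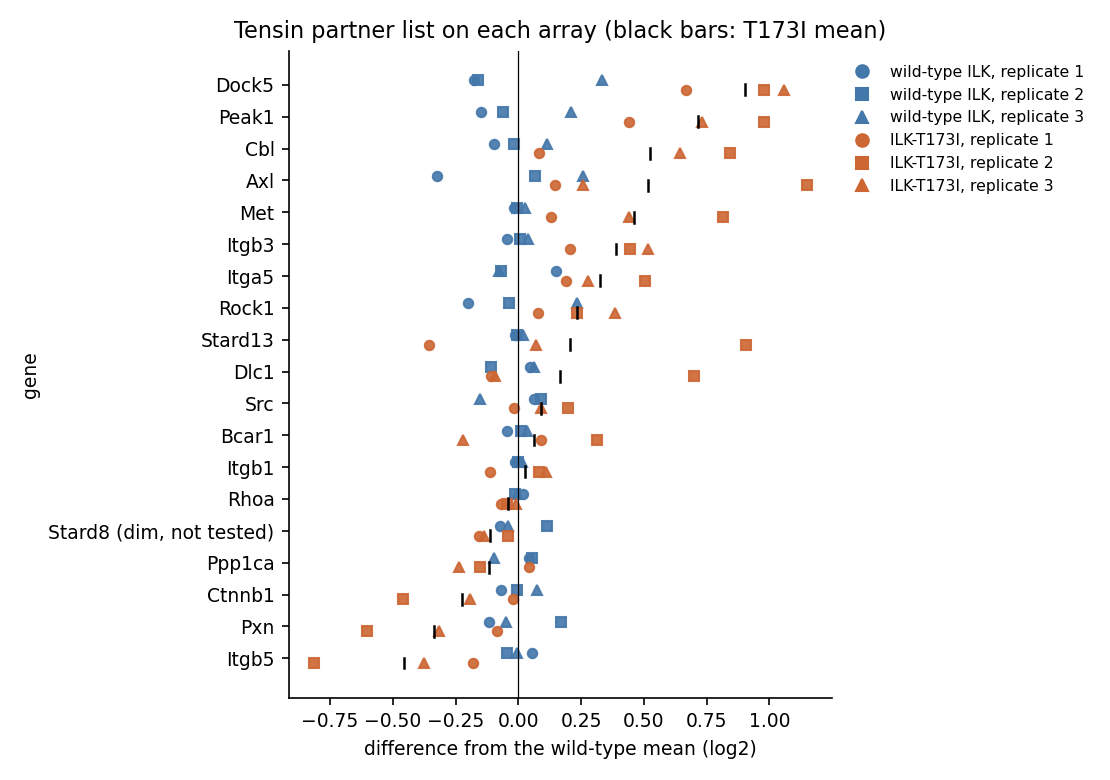
Difference of each array from the wild-type mean, in log2 units (horizontal axis), for the 19 partner genes with a probe set, ordered by the T173I mean; each point is 1 array and black bars are T173I means. Dock5 and Peak1 lie at the top, with all T173I arrays above all wild-type arrays, and Itgb5 at the bottom, with all T173I arrays below.

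In the list of ILK and talin linkers of focal adhesions, 0 of 16 members passed limma's adjusted threshold. Before adjustment 3 were higher and 1 was lower at p under 0.05, beside 4.88% of all genes higher and 5.31% lower. The median was 0.14, and it was 0.075 without T173I replicate 2 and 0.081 without wild-type replicate 1. Kank1, a talin-binding protein at the rim of adhesions, was at 8.60 to 8.64 in wild type and at 8.44, 7.72 and 7.75 on T173I replicates 1, 2 and 3. Without T173I replicate 1 it was the 1 member past the adjusted threshold, in a fit that called 156 genes (1.17%) in all. Tgfb1i1, the LIM protein Hic-5, Actn1, alpha-actinin 1, and Fermt2, kindlin-2, had differences of 0.77, 0.48 and 0.36.

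Readouts of EGF signalling were set beside the tensins from 3 further lists. Of 21 ERK feedback and output genes 0 passed limma's adjusted threshold, and before adjustment 8 were higher and 0 lower at p under 0.05, beside 4.88% of all genes higher and 5.31% lower. The median was 0.34, and 0.52 without T173I replicate 1. Etv4, Etv5, Ccnd1 and Plaur had differences of 1.32, 1.67, 2.53 and 1.41, with their highest values on T173I replicates 2 and 3. Without T173I replicate 1, Etv4, Etv5 and Ccnd1 passed, in a fit that called 156 genes (1.17%) in all. The array left out there is the T173I array that lay beside wild type, which favours such calls. Of 16 SRF and MRTF targets, actin-linked genes, 0 passed, and before adjustment 4 were higher and 0 lower at p under 0.05, beside the same shares of all genes. The median was 0.16, with 0.0032 without T173I replicate 2 and 0.039 without wild-type replicate 3, and Cnn2 (0.64) passed without T173I replicate 1. Srf, Tagln2 and Acta2 had differences of 0.42, 0.58 and 2.13, the last overlapping between groups. Of 10 genes of the EGF receptor family and its pathway 0 passed. Before adjustment 1, Map2k1 (0.26), was higher and 0 were lower at p under 0.05, beside 4.88% of all genes higher and 5.31% lower. The median of these 10 genes was -0.13, and it was -0.020 and -0.022 without T173I replicates 2 and 3, and -0.065 and -0.083 without wild-type replicates 1 and 2. Sos1, Gab1 and Erbb2 had differences of 0.41, -0.27 and -0.23.

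Cell type markers were read on the same arrays. Of 14 tested collecting duct and epithelial markers 0 passed. Before adjustment, at p under 0.05, 4 keratins were higher (Krt19 by 1.62, Krt8 by 0.64, Krt18 by 0.44, and Krt7), and Gata3, which encodes a factor needed for the nephric duct, was lower, with a difference of -0.78, beside 10.2% of all genes in either direction. Without T173I replicate 1, Krt19 and Scnn1g, an epithelial sodium channel subunit, passed in limma's test, in opposite directions. That fit called 156 genes (1.17%) in all. The mean of all 20 of these markers shifted from the wild-type mean by 0.12, -0.081 and -0.019 on T173I replicates 1, 2 and 3. Of 8 fibroblast markers 5 were under the filter, and their mean level was 5.12 to 5.27 in wild type and 5.11 to 5.21 in T173I. Col1a1, Col1a2 and Thy1, the 3 above it, had differences of 0.10, -0.026 and 0.029. Of 16 markers of other kidney, endothelial and immune cells 10 were under the filter, with mean levels of 5.25 to 5.30 and 5.17 to 5.31. Csf1r, a macrophage receptor gene, had a difference of -0.78, while Foxi1, Atp6v1b1 and Slc34a1 had 0.15, -0.21 and 0.15. The part of these shifts in the tensin values was not tested.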

How the data were processed

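RNA of 6 samples, 3 per group, was measured on 1 Affymetrix array each, per the labels. The deposited table holds log2 values made by the authors with RMA, per the submitters' processing notes; the sources used here name no implementation or version. RMA evens out signal distributions between arrays, so a shift of most genes together would be hidden. Arrays have no read depth, and their number limits precision.

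Of 41345 probe sets, 25335 were in the platform annotation and 23521 had a single symbol, 1814 had several and 16010 were unnamed. The probe set with the highest mean stood for a gene. Genes in the lowest 40% by mean over all arrays (log2 5.37) were left out, and 13308 were tested with limma 3.58.1 (R 4.3.3, lmFit and eBayes, no covariate, two-sided, Benjamini-Hochberg, threshold 0.05); the script was tested on simulated data. Intervals are 95% intervals of that fit. No 2 arrays were equal throughout. The members and the 8 gene lists (138 symbols, 128 with a probe set) were chosen with earlier results of these data known. From each list, up to 4 tested members with the smallest unadjusted p were named, and for each tensin the 3 genes with the highest and the 3 with the lowest Pearson r, without predicted and RNA genes; other genes were named after their values were seen. Promoter windows are RefSeq's, matched by symbol for 3 of 4 members. Alternatives covered the filter, the probe set rule, the variance prior, repeated quantile normalization, array weights, the replicate block and each array left out.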

Additional observations from a re-analysis of the deposited data

How the results depend on the processing

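The count of genes past the adjusted threshold was 0 in the 8 alternatives that kept all arrays, and ran from 0 to 156 when each array was left out, the 156 coming without T173I replicate 1. Array weights moved the count at an unadjusted p under 0.05 from 1357 to 2856. The filter, the probe set rule, the variance prior and the replicate block left the differences of the tensins unchanged wherever these were tested. That was fixed by arithmetic, with 1 probe set per tensin and 3 arrays in each group, so it shows no stability. With 3 arrays per group, leaving out 1 array cannot by arithmetic move a difference by 1 SD between replicates, so that yardstick shows no stability. Leaving out each array, the differences ran from -3.38 to -1.30 for Tns1, from -0.62 to -0.35 for Tns3, from -0.17 to 0.19 for Tns2 and from 0.096 to 0.14 for Tns4, and the Tns4 shift minus the Tns3 shift from 0.51 to 0.75. Array weights gave -2.72 for Tns1 and 0.19 for Tns4. Tns4 dropped out of the test under the stricter filter (60%) and without T173I replicate 3. The stricter filter left no fibroblast marker and no marker of the other cells to test. The median of the EGF receptor family list lay at -0.18 to -0.020 as each array was left out.

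Same-numbered arrays did not deviate together (correlations 0.049, 0.067 and 0.048 for replicates 1, 2 and 3), and only number 2 correlated best with its own number. With the replicate block 0 genes passed and 1508 had an unadjusted p under 0.05.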
